A study of Ovis aries with 6 samples.

Results

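The regions described here are short unmethylated regions that kept nearly the same extent in lamb and fetal perirenal fat of sheep. An unmethylated region (UMR) is a CpG-rich stretch whose CpG sites carry little DNA methylation, while a low-methylated region (LMR) holds fewer CpGs at an intermediate level. A member is a pair of 1 lamb UMR and 1 fetal UMR on an autosome that overlap each other and no further UMR of either stage. The lengths of the pair had to lie within 1.5 times of each other, no base could lie in a DNA methylation valley (DMV, a long unmethylated domain) of either stage, and the pair merged had to span under 1000 bases. Of 21199 lamb and 21446 fetal UMRs, 19512 pairs overlapped 1 to 1, 18667 had a ratio within the bounds, and 18207 lay outside DMVs. Of these 18207 stable UMRs, 1805 (9.91%) were short. The other stable UMRs, 12948 of 1 to 3 kb and 3454 of 3 kb or more, serve for comparison.

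In vertebrate genomes most CpGs are methylated, and the main exceptions are CpG islands, which often hold the start sites of genes. Such islands are kept free of methylation in nearly every tissue, in part because proteins that bind unmethylated CpGs recruit histone methylation that de novo DNA methyltransferases avoid. Short CpG-dense islands away from known start sites occur too, and many of them act as promoters or enhancers in some tissues only.

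The study compared perirenal adipose tissue, the depot around the kidney that changes from brown to white fat after birth, between 2 stages. The lamb group held 3 animals labelled white adipose, aged 89 days per the protocols of the samples and 80 days per the text of the series. The fetal group held 3 animals labelled brown adipose, at 132 days post conception with term at 150 days. Every animal was a wild-type, untreated, pure-bred Merino on a maintenance diet, and methylation was read by whole-genome bisulfite sequencing, in which unmethylated cytosines read as T. The lamb sample descriptions end in VEH and the fetal ones in TV, so whatever these tags mean cannot be told apart from stage. The tissue is bulk, so a change in the mix of cell types and a change within a cell type cannot be told apart, and no cell type was checked by markers here.

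The mean autosomal coverage per CpG was 5.22 to 8.00 reads in lambs and 5.38 to 7.45 reads in fetuses. Inside the short UMRs it was 5.76 to 8.76 reads in lambs and 6.18 to 8.21 reads in fetuses. CpGs read at least 5 times in every one of the 6 animals were used for class levels, which left 16767 usable CpGs in the short UMRs. The level is the share of reads that are methylated, and a level over all reads takes every covered CpG of a region and all animals together. Reads of a region or class are counts summed over its CpGs, so a read that spans several CpGs counts at each of them. The lists of regions give 1 set per stage with positions alone, so counts over them carry no replicate error, on the sheep build Oar_v3.1, and all positions here are on it. Because the lists are of low methylation, and pairs had to have a similar extent in both stages, a low level and a similar extent are what the selection fixed and not findings.

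The short UMRs were small but dense in CpGs. The merged length ran from 260 to 999 bases with a median of 831, against a median of 1816 bases in the 1 to 3 kb class. They held 30 to 114 CpGs with a median of 41, against a median of 73 in UMRs of 1 to 3 kb. The density was a median of 5.35 CpGs per 100 bases in short UMRs, 4.08 in UMRs of 1 to 3 kb and 1.56 in LMRs chosen by the same pairing. No UMR of either list held under 30 CpGs and no LMR held over 29, so the number of CpGs alone separates the lists, and a short UMR is by construction dense. Exactly 30 CpGs were found in 35 members, and 439 members (24.3%) held 30 to 35 CpGs, against 4.48% of the 1 to 3 kb class. About 1 in 4 short UMRs thus sat close to the number at which a region is listed as an LMR instead.

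**Figure D1:**
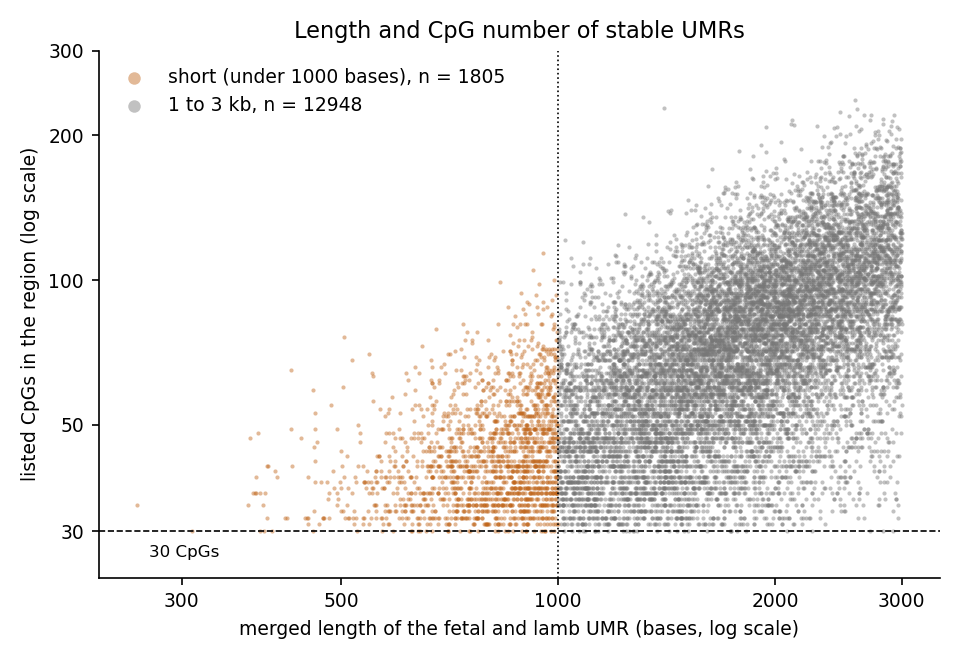
Merged length (x axis, bases, log scale) against the number of listed CpGs (y axis, log scale) of each stable UMR, short ones in orange (n = 1805) and those of 1 to 3 kb in grey (n = 12948). No region lies under the dashed line at 30 CpGs, and the short UMRs crowd above it, with a median of 41 CpGs.

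The shortest member lay on chromosome 11 from 34812059 to 34812318, with 34 CpGs in 260 bases and the same ends in both stages. Its level was 26.9%, 37.0% and 38.6% in lambs 1 to 3 and 49.5%, 28.7% and 23.9% in fetuses 1 to 3, so the stages overlapped widely. The next shortest, on chromosome 25 from 30998852 to 30999161, held 30 CpGs in 310 bases at 20.2% ± 5.50 in lambs and 28.3% ± 6.81 in fetuses (SD, n = 3 each). The member next in length, on chromosome 20 from 17757676 to 17758046, held 34 CpGs in 371 bases. At its 12 usable CpGs it was at 3.09% ± 1.30 in lambs and 4.59% ± 5.23 in fetuses (SD, n = 3 each), a difference of -1.50 points, which was -7.21 points with a coverage minimum of 3 reads. Over all its reads the level was 11.97%. At the upper bound, members of 999 bases lay on chromosome 1 from 171037988 to 171038986 (8.37% over all reads) and on chromosome 12 from 3073072 to 3074070 (8.02% over all reads). Stable UMRs of exactly 1000 bases, just outside the bound, lay on chromosome 10 from 72400327 to 72401326 (14.2% over all reads) and on chromosome 13 from 27016928 to 27017927 (8.37% over all reads).

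The rule for pairs bounds how far the ends of the short UMRs could move between the stages. In 456 members (25.3%) both ends were the same base in lamb and fetal tissue, close to the 26.1% of the 1 to 3 kb class. Of the rest, 645 were wider and 701 narrower in lambs, and 3 had the same length at other ends. The summed shift of both ends had a median of 47 bases and of 1 CpG, against 82 bases and 1 CpG in the longer regions of the 1 to 3 kb class. Ends fell midway between 2 listed CpGs, within 5 bases, in 96.7% to 97.1% of UMRs, so an end moves in steps of whole CpGs.

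Although listed as unmethylated, the short UMRs spanned a wide range of methylation. The level over all reads ran from 0.350% to 48.5% with a median of 14.5%, against a median of 6.97% in UMRs of 1 to 3 kb and 31.3% in the paired LMRs. It was under 10% in 580 members, 10 to 20% in 643, 20 to 30% in 384 and at least 30% in 198. The last group made up 10.97% of short UMRs, against 3.31% of the 1 to 3 kb class. In 33 short UMRs the level was at least 30% in each of the 6 animals, and in 285 (15.8%) it was under 10% in each animal, against 51.2% of the 1 to 3 kb class. For the 198 at or over 30%, the name unmethylated region goes against the data: their levels lie around the median of the LMRs, and it is their CpG number that places them in the UMR lists.

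Among members with at least 10 usable CpGs, those with the lowest and the highest level at these CpGs, chosen after their values were seen, were as follows. On chromosome 1 from 104420768 to 104421700, a member with the same ends in both stages had 24 usable CpGs at 0.325%, 0% and 0% in lambs 1 to 3 and at 0.341%, 0% and 0.397% in fetuses 1 to 3. The values of 0 rest on 183 to 189 counts per animal, summed over CpGs. If these were independent they would allow up to 1.59% to 1.64%, but a read can count at several CpGs, so the true bound is looser. On chromosome 3 from 3313268 to 3314162, a member of 895 bases had 10 usable CpGs at 49.2%, 51.3% and 54.4% in lambs and at 32.4%, 53.8% and 67.7% in fetuses. The first was close to empty of methylation in every animal. The second was near the middle of the scale in the lambs and spread widely among the fetuses.

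At single CpGs the intermediate level was common rather than a mix of empty and full sites. Of the 16767 usable CpGs of short UMRs, 48.3% in lambs and 50.1% in fetuses had a level under 10%, with the reads of a stage summed, against 72.5% in lambs and 73.4% in fetuses for the 1 to 3 kb class. A level of 10 to 50% was found at 44.8% of the CpGs in lambs and 43.3% in fetuses. A level of at least 80%, as in most of the genome, was found at 0.322% of the CpGs in lambs and 0.292% in fetuses.

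Within a short UMR, methylation was lowest in the middle and rose toward both ends in every animal. The outer parts, 25% of the length on each side, exceeded the inner part by 12.3, 12.5 and 12.7 percentage points in lambs 1 to 3 and by 12.8, 11.8 and 11.9 points in fetuses 1 to 3. The outer parts were at 23.1% in lambs and 22.6% in fetuses, and the inner part at 10.6% in lambs and 10.4% in fetuses. In the first 50 bases inside an end the level was 34.4% in lambs and 33.4% in fetuses, and at 400 to 450 bases inside it was 9.52% in lambs and 9.02% in fetuses. In the first 100 bases outside, the level was already 66.7% in lambs and 66.4% in fetuses, and it reached 81.0% in lambs and 80.3% in fetuses at 300 to 400 bases outside. The lists place the ends where the level turns, so the step at the end itself comes from the selection.

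Short UMRs stood 6.46 percentage points above the 1 to 3 kb class, on the mean of the 6 animals (range 5.89 to 6.96; exact sign-flip permutation test over animals, two-sided, p = 0.03125, the smallest that 6 animals allow). A larger part of a short region lies near its ends: 44.1% of the usable CpGs of short UMRs were within 200 bases of an end, against 15.2% in UMRs of 1 to 3 kb. When CpGs within 500 bases of an end were compared at equal distance from it, the order turned. Short UMRs were then at 15.5% and the 1 to 3 kb class at 17.96%, a difference of -2.43 points (range -2.73 to -2.08, lower in 6 of 6 animals; exact sign-flip permutation p = 0.03125). With equal weight per CpG this difference was -1.34 points, and without 8 members of very high coverage, described below, it was -1.08 points. In the first 50 bases inside an end, short UMRs were at 33.9% and the 1 to 3 kb class at 41.9%. The gap there was smaller without the 8 members, at 38.6% against 41.9%, and with equal weight per CpG, at 38.3% against 42.4%. From 300 to 350 bases inside both were close, at 9.78% and 9.74%, and from 400 to 450 bases short UMRs were higher in 6 of 6 animals, at 9.27% against 7.24%. The comparison at equal distance was chosen after the data were seen.

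**Figure D2:**
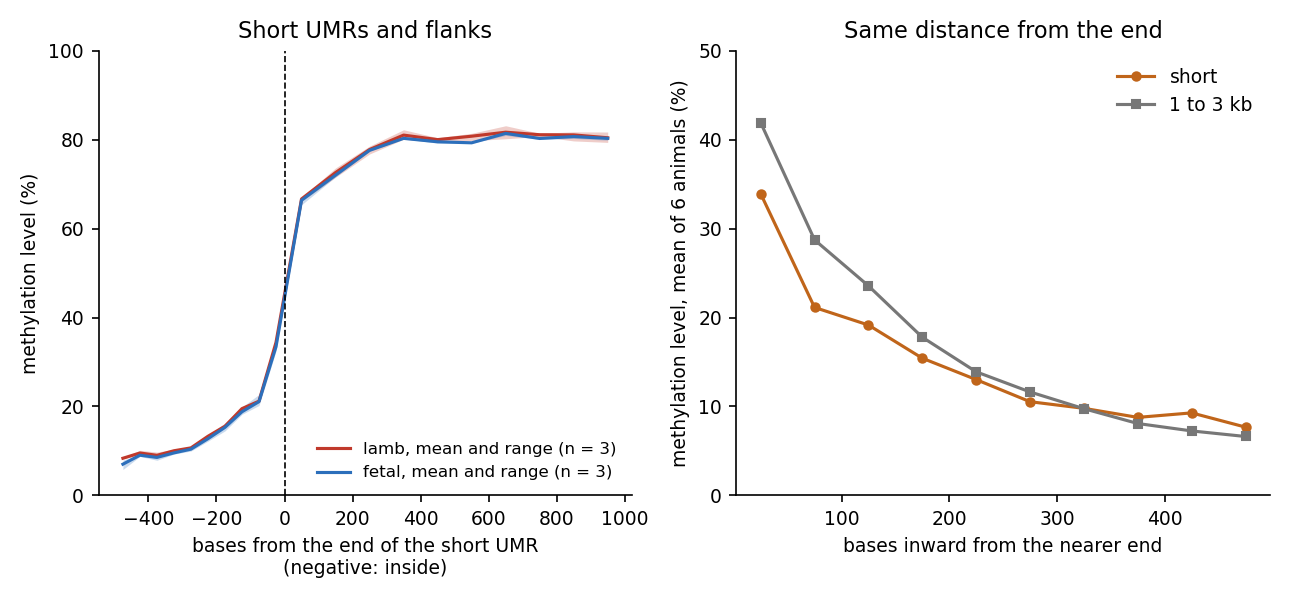
Left, methylation level (y axis, %) by distance from the end of short UMRs (x axis, bases, negative inside), with lamb and fetal means as lines and the range of 3 animals each as shading. Right, level at the same distance inward from the nearer end in short UMRs (orange) and UMRs of 1 to 3 kb (grey), mean of 6 animals: short UMRs are lower in the first 300 bases, with 33.9% against 41.9% in the first 50 (38.6% against 41.9% without 8 members of very high coverage), and higher at 400 to 450 bases.

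Taken as a class, the short UMRs had nearly the same methylation in lambs and in fetuses. The level was 16.4%, 16.3% and 16.3% in lambs 1 to 3, and 16.8%, 15.6% and 15.5% in fetuses 1 to 3. The lambs lay close together inside the wider range of the fetuses. The means were 16.3% ± 0.0411 in lambs and 15.96% ± 0.749 in fetuses (SD, n = 3 each). The lambs were thus 0.352 percentage points higher (exact permutation test, two-sided, p = 0.4, where 3 animals against 3 cannot go below 0.1). In UMRs of 1 to 3 kb the means were 9.72% ± 0.158 in lambs and 9.63% ± 0.208 in fetuses (SD, n = 3 each; exact permutation p = 0.5). The gap between short UMRs and the 1 to 3 kb class was 6.60 points in lambs and 6.33 points in fetuses, and this difference of 0.263 points was within the spread of the animals (exact permutation p = 0.5). With a coverage minimum of 10 reads the class difference was -2.50 points, and over all covered CpGs it was -0.219 points, both with overlap between the stages.

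For the shape and the surroundings of the regions, the stages overlapped. The excess of the outer parts over the inner part differed by 0.316 points (exact permutation p = 0.4), and by 0.00106 points over the span that both stages list (exact permutation p = 1). The flanks, meaning 1 kb on each side without any listed region, were at 76.5%, 78.2% and 77.6% in lambs 1 to 3 and at 77.1%, 76.6% and 77.1% in fetuses 1 to 3, a difference of 0.517 points (exact permutation p = 0.5), which was 3.96 points with a coverage minimum of 10 reads (exact permutation p = 0.2). Lamb 1 lay below every fetus and the other lambs above them.

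Members with fewer CpGs carried more methylation. The 626 members with 30 to 37 CpGs were at 18.2% ± 0.0394 in lambs and 17.8% ± 1.05 in fetuses (SD, n = 3 each). The 603 members with 38 to 47 CpGs were at 16.8% ± 0.124 in lambs and 16.2% ± 0.494 in fetuses, and the 576 members with 48 to 114 CpGs at 14.3% ± 0.205 in lambs and 14.2% ± 1.34 in fetuses (SD, n = 3 each). Between lambs and fetuses these groups differed by 0.355, 0.580 and 0.0861 points, with exact permutation p = 0.8, 0.2 and 1 and Benjamini-Hochberg adjusted values of 1, 0.6 and 1. The group with the fewest CpGs exceeded the one with the most in each of 6 animals, by 2.47 to 5.54 points (mean 3.73; exact sign-flip permutation p = 0.03125), and by a mean of 2.72 points with equal weight per CpG. Across the 1805 members the level over all reads had Spearman's rho of -0.209 with the number of CpGs, -0.183 with length and -0.0805 with density, while across the 12948 UMRs of 1 to 3 kb it was -0.486 with the number of CpGs and -0.364 with density. These are descriptions across regions of the same libraries, in which number, length and density are tied to each other.

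**Figure D3:**
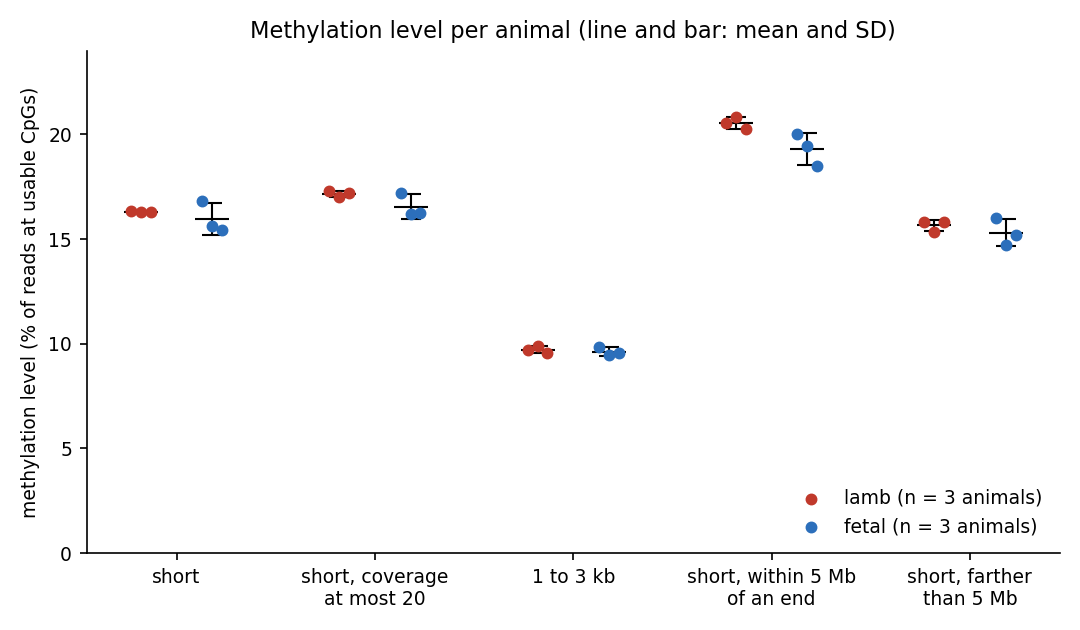
Methylation level per animal (y axis, % of reads at usable CpGs) of all short UMRs, of short UMRs with a mean coverage of at most 20 reads, of UMRs of 1 to 3 kb, and of the short UMRs with at most 20 reads split at 5 Mb from a chromosome end. Points are animals, lambs left in red and fetuses right in blue, with mean and SD (n = 3 each): the lambs and fetuses overlap for short UMRs at 16.3% and 15.96%, and lie apart within 5 Mb of an end, at 20.6% and 19.3%.

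Single short UMRs were tested where at least 3 usable CpGs were present, which was the case for 1488 of 1805 members (82.4%), while 117 members had no usable CpG. The test was a quasi-binomial logistic model with limma's moderation of the dispersion, adjusted over all 78486 tested UMRs and LMRs, and a call needed both an adjusted p below 0.05 and 10 or more percentage points between the stage means. None of the 1488 short UMRs was called, where 0.00892% of all tested regions were (7 of 78486), and limma's and edgeR's own tests on the same reads also gave 0. The smallest adjusted p among members was 0.113. An unadjusted p under 0.05 was found for 126 members (8.47%), 79 higher and 47 lower in lambs. Of all tested regions it was found for 11.4%, with 7.22% higher and 4.18% lower in lambs. With limma it was found for 106 members (7.12%) and 10.1% of all tested regions, and with edgeR for 121 members (8.13%) and 10.3% of all tested regions. Levels of lambs and fetuses were fully apart, with no overlap, in 147 members (9.88%), 88 higher and 59 lower in lambs, against 15.9% of all tested regions, 9.74% higher and 6.17% lower. The pool of all tested regions includes those listed in 1 stage only, whose listing already rests on a low level there. In UMRs of 1 to 3 kb, chosen by the same pairing, an unadjusted p under 0.05 was found for 7.53% and in the paired LMRs for 6.98%.

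Differences of single short UMRs centred near 0 and ran widely to both sides. The median lamb minus fetal difference was 0.456 percentage points, with quartiles of -2.44 and 3.85 and a range of -26.0 to 38.8, beside a median of 0.819 over all tested regions. The median SD between animals was 4.65 points in lambs and 4.33 points in fetuses, and a tested member carried a median of 79.8 reads per animal over 10 usable CpGs. The dispersion of the model before moderation, which is the observed spread relative to that of independent counts, had a median of 1.58 in short UMRs against 1.28 in UMRs of 1 to 3 kb. Reads that span several CpGs count at each of them, so the counts are not independent and this value is not spread between animals alone. Across the 1488 members, the Pearson correlation of the level between animals was 0.683 to 0.717 between 2 lambs, 0.725 to 0.738 between 2 fetuses and 0.688 to 0.733 between a lamb and a fetus. The correlations between stages were thus about as high as those within a stage. Members were chosen for a similar listing in both stages, so this was in part fixed in advance, and counting error lowers all of these correlations.

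**Figure D4:**
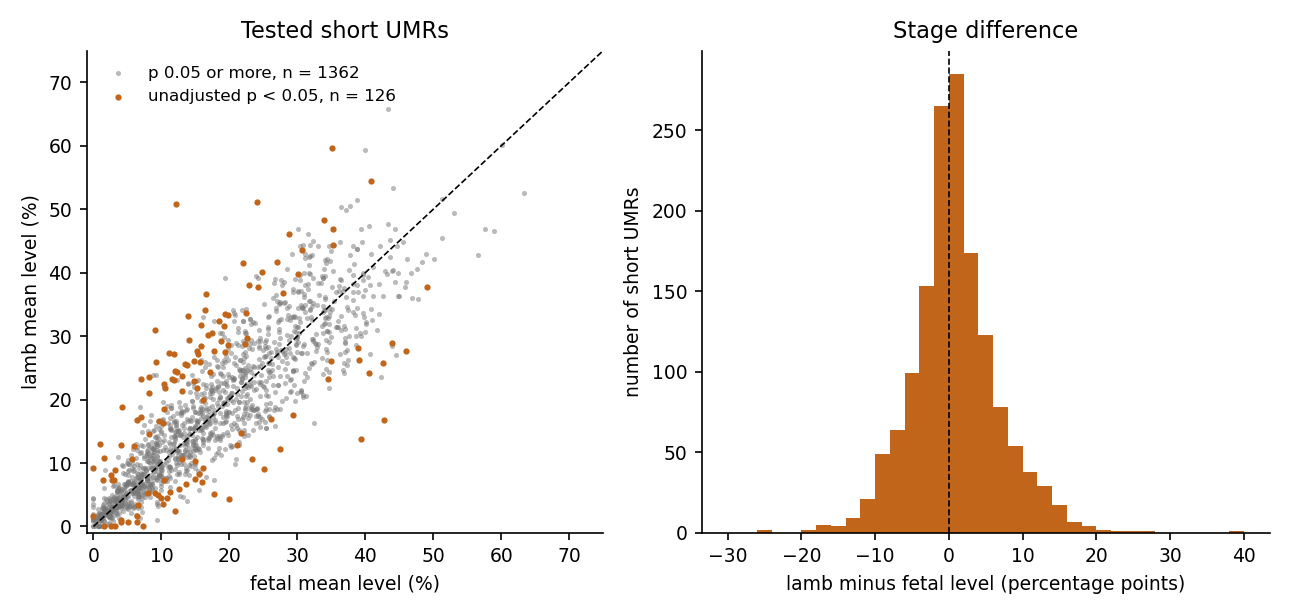
Left, mean level of the 3 lambs (y axis, %) against that of the 3 fetuses (x axis, %) for the 1488 tested short UMRs, with the 126 of unadjusted p under 0.05 in orange and the diagonal dashed. Right, number of short UMRs by lamb minus fetal difference (percentage points): the distribution centres near 0, with a median of 0.456.

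Among the members with the smallest unadjusted p and no overlap between stages, the 4 with the higher level in lambs were ordinary in coverage. The member on chromosome 3 from 31288414 to 31289362 had 34 CpGs, 9 of them usable, and 88.2 reads per animal. It was at 26.7%, 33.8% and 32.2% in lambs 1 to 3 and at 8.42%, 7.58% and 11.3% in fetuses 1 to 3. Each lamb was far above each fetus, and the means were 30.9% ± 3.72 in lambs and 9.11% ± 1.98 in fetuses (SD, n = 3 each). The difference was 21.8 points (quasi-binomial test with limma's moderation, p = 4.67e-05, adjusted p = 0.113). With a coverage minimum of 3 reads the difference was 14.8 points and the adjusted p 0.0391, so the member passed at that setting. The other 3 were smaller in difference. On chromosome 12, the member from 75600682 to 75601648 was at 23.6% ± 8.41 in lambs and 8.17% ± 4.39 in fetuses, and the member from 47863484 to 47864295 at 17.2% ± 3.75 in lambs and 6.96% ± 1.61 in fetuses (SD, n = 3 each). Over all reads of the latter, the stages overlapped, at 26.2%, 25.4% and 13.4% in lambs 1 to 3 and 15.3%, 14.7% and 6.23% in fetuses 1 to 3. On chromosome 18 from 67779098 to 67780065 the level was 41.7% ± 5.90 in lambs and 27.1% ± 3.12 in fetuses (SD, n = 3 each). Their adjusted p values were 0.205, 0.210 and 0.210 in the same test.

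Of the 4 members with the smallest unadjusted p and the lower level in lambs, a pair had extreme coverage. The member on chromosome 22 from 44651182 to 44652038 was at 18.4%, 28.9% and 25.2% in lambs 1 to 3 and at 36.5%, 44.8% and 40.2% in fetuses 1 to 3, over 20 usable CpGs and 180 reads per animal. Its difference was -16.4 points (quasi-binomial test with limma's moderation, adjusted p = 0.133), and -9.81 points with a coverage minimum of 3 reads. The member on chromosome 21 from 28988032 to 28988926 was at 4.52%, 7.41% and 0.9901% in lambs and at 13.7%, 29% and 17% in fetuses, a difference of -15.6 points (adjusted p = 0.136). The remaining members, on chromosome 3 from 176053466 to 176053905 and on chromosome 12 from 17186298 to 17187042, differed by only -2.78 and -2.98 points (adjusted p = 0.128 and 0.139) and had 5450 and 4460 reads per animal.

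A mean coverage over 20 reads per animal was found in 8 short UMRs (0.443%), from 62.8 to 260 reads, where the median short UMR had 6.47. Such coverage was also found in 15 UMRs of 1 to 3 kb (0.116%), 10 of 3 kb or more (0.290%) and 113 of the paired LMRs (0.198%). They held 149 of the 16767 usable CpGs but 9.82% to 17.4% of the reads counted at usable CpGs of short UMRs in an animal. They lay 1 each on chromosomes 2, 3, 4, 6, 9, 12, 14 and 22. Coverage differed between animals out of step with library depth. On chromosome 6 from 19512128 to 19512665 the mean coverage was 60.0, 452 and 128 reads in lambs 1 to 3 and 69.3, 24.6 and 44.6 reads in fetuses 1 to 3. Fetus 2 had the lowest coverage of the 6 animals in 6 of the 8 members. On chromosome 2 from 79362978 to 79363402, the densest member with 65 CpGs in 425 bases, coverage was 231, 205 and 236 reads in lambs and 302, 58.9 and 324 reads in fetuses, and the level was 6.19%, 6.55% and 3.56% in lambs and 15.8%, 10.6% and 7.51% in fetuses. Of the 8 members, 7 were lower in lambs, 6 had an unadjusted p under 0.05 (11.4% of all tested regions had), and in 3 the stages did not overlap (15.9% of all tested regions). Together they were at 8.51%, 9.89% and 9.26% in lambs and at 13.9%, 12.8% and 9.65% in fetuses (difference -2.92 points, exact permutation p = 0.2). Whether reads from other copies of a sequence map to them was not tested.

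Without these 8 members, a choice made after the data were seen, the class level was 17.3%, 17.0% and 17.2% in lambs 1 to 3 and 17.2%, 16.2% and 16.2% in fetuses 1 to 3. The difference was then 0.615 percentage points (exact permutation p = 0.3), and the fetuses still overlapped the lambs through fetus 1. Over all covered CpGs the difference was -0.219 points with the 8 members and 0.437 points without them (exact permutation p = 0.8 and 0.4).

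A pair of members of large difference shows how unevenly single animals could contribute. The member on chromosome 2 from 2205464 to 2206232, which overlaps a region of the authors' hyper list, was at 13.6%, 82.1% and 57.0% in lambs 1 to 3 and at 10.2%, 20.4% and 5.60% in fetuses 1 to 3. Lambs 2 and 3 stood far above the fetuses and lamb 1 lay among them. The difference was 38.8 points (quasi-binomial test with limma's moderation, adjusted p = 0.242), and without lamb 1 it was 57.5 points with an adjusted p of 0.0447. The member on chromosome 2 from 184685128 to 184685938, named because it was called only without lamb 1, was at 18.7%, 1.87% and 1.60% in lambs and at 21.4%, 15.6% and 16.3% in fetuses, with an adjusted p of 0.458 in all animals and 0.0259 without lamb 1. Both regions were called only without lamb 1, so that lamb 1 resembled the fetuses in them follows from this choice.

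The members with the largest SD within a stage included cases where a single lamb stood apart. On chromosome 17 from 33929063 to 33929686 the level was 22.2%, 78.9% and 7.14% in lambs and 35%, 41.2% and 26.1% in fetuses, on 3 usable CpGs and 20.8 reads per animal. On chromosome 22 from 48354226 to 48354982 it was 20.6%, 25.5% and 86.9% in lambs and 48.0%, 39.6% and 5.13% in fetuses, on 7 usable CpGs. By contrast, the member with the next most usable CpGs, on chromosome 13 from 62547507 to 62548331, was at 6.87% ± 1.13 in lambs and 5.79% ± 1.22 in fetuses over 47 CpGs (SD, n = 3 each). The other members with most usable CpGs were intermediate and more variable. On chromosome 12 from 27077108 to 27077964 the level was 25.2% ± 4.92 in lambs and 24.2% ± 9.10 in fetuses, and on chromosome 1 from 98677502 to 98678454 it was 35.9% ± 3.91 in lambs and 34.1% ± 11.5 in fetuses (SD, n = 3 each). Both of these had over 12 reads of mean coverage.

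Of the 1805 short UMRs, 13 touched the differentially methylated regions (DMRs) that the authors list. A hyper DMR overlapped 9 members (0.499%) and a hypo DMR 4 (0.222%), against 0.656% and 0.857% of the 1 to 3 kb class. The shares were higher in UMRs of 3 kb or more, at 1.30% and 0.869%. They were lower in the paired LMRs, at 0.0527% and 0.0509%, whose median length was 671 bases. These shares are per region and not per base. The median length was 831 bases in short UMRs and 1816 bases in the 1 to 3 kb class, so the longer regions offer more bases to overlap. The lamb mean was the higher in 8 of the 9 at hyper DMRs, with a median difference of 4.92 points over the whole member, and the lower in 4 of 4 at hypo DMRs, with a median of -8.45 points. These lists rest on the same animals, so the direction is not independent evidence. Of the 13 members, 5 lay on chromosome 20, which held 76 of all 1805 short UMRs. How many of the listed DMRs lie on that chromosome is not given here. The level over the whole member differed between the hyper members with most usable CpGs. On chromosome 24 from 24774300 to 24775270 the level was 3.11% ± 0.581 in lambs and 3.59% ± 1.88 in fetuses, and on chromosome 20 from 17687713 to 17688588 it was 4.01% ± 2.33 in lambs and 2.49% ± 0.631 in fetuses (SD, n = 3 each). On chromosome 20 from 49797498 to 49798422 it was 16.3% ± 2.02 in lambs and 10.4% ± 4.67 in fetuses (SD, n = 3 each). At hypo DMRs, the member on chromosome 20 from 49544917 to 49545781 was at 2.92% in lambs and 4.07% in fetuses, that on chromosome 12 from 1311511 to 1312063 at 23.6% in lambs and 42.3% in fetuses, and that on chromosome 20 from 7160380 to 7161310 at 7.64% in lambs and 10.7% in fetuses.

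Short UMRs were found more often near chromosome ends, and those near the ends carried more methylation. Within 5 Mb of an end lay 543 members (30.1%), against 16.8% of the 1 to 3 kb class. Sheep chromosomes 4 to 26 are acrocentric, with the centromere at one end of the chromosome. On them, 354 members lay within 5 Mb of the last base and 77 within 5 Mb of the first, which is 25.9% and 5.64% of the 1365 members there, against 13.3% and 5.82% in the 1 to 3 kb class. The excess was therefore on the side of the last base. The median level over all reads was 21.4% in the 186 members under 1 Mb from an end, 18.8% at 1 to 5 Mb, 13.7% at 5 to 20 Mb and 11.05% at 20 Mb or more. In the 1 to 3 kb class it was 10.9%, 10.8%, 7.17% and 5.92% at the same distances. Density hardly followed this order, with medians of 5.39, 5.35, 5.29 and 5.45 CpGs per 100 bases in short UMRs, and the median coverage was 6.45 to 6.51 reads.

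**Figure D5:**
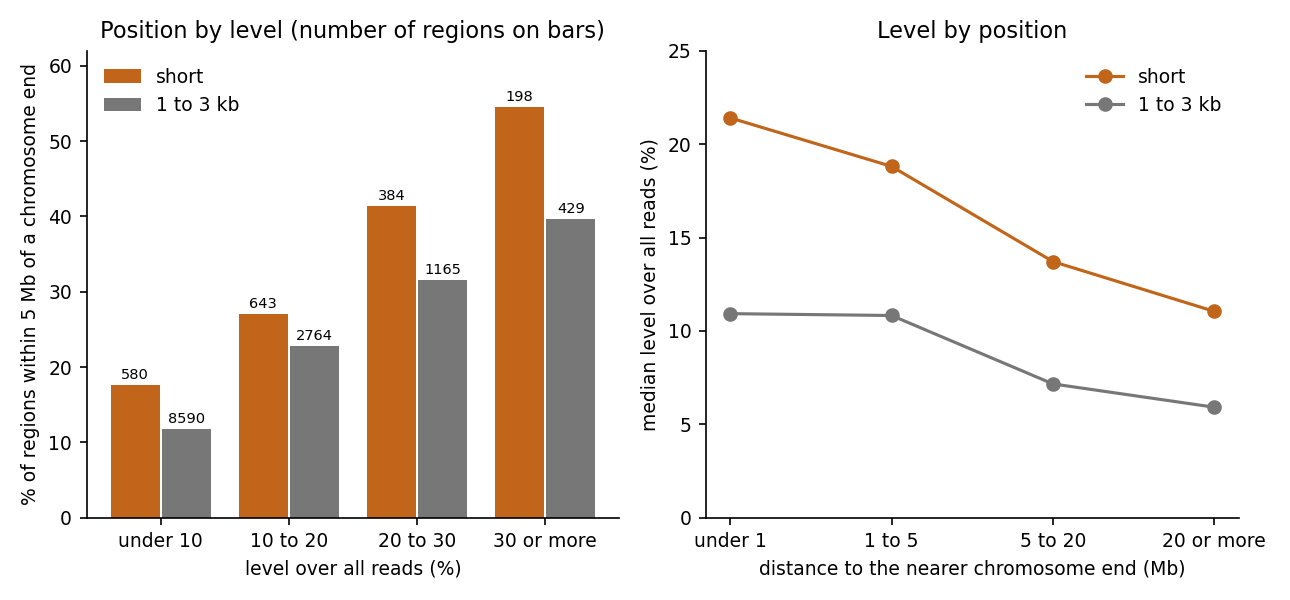
Left, percentage of regions within 5 Mb of a chromosome end (y axis) by level over all reads (x axis), for short UMRs (orange) and UMRs of 1 to 3 kb (grey), with the number of regions on each bar. Right, median level (y axis, %) by distance to the nearer chromosome end (x axis, Mb): both classes fall with distance, short UMRs reaching 11.05% at 20 Mb or more and 21.4% under 1 Mb.

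Seen from the level, the share of members within 5 Mb of an end was 17.6% for those under 10%, 27.1% at 10 to 20%, 41.4% at 20 to 30% and 54.5% at 30% or more. In the 1 to 3 kb class these shares were 11.8%, 22.8%, 31.6% and 39.6%. The distance to the next LMR and the share with the same ends fell with the level. The median distance to the next LMR was 4632 bases for members under 10% and 1975 bases for those at 30% or more. Both ends were the same base in lamb and fetal tissue in 41.6% of members under 10% and in 6.57% of those at 30% or more. In the 1 to 3 kb class the shares with the same ends were 32.3% and 5.59% at these levels. The more methylated regions of both classes were thus also those with less fixed borders in the lists. Where the ends differ, the merged pair includes bases listed in 1 stage only, so level and borders are tied to each other.

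With the members within 5 Mb of a chromosome end and at most 20 reads of mean coverage pooled, each lamb was above each fetus. Whether this gap exceeds the one elsewhere was not resolved. Leaving out the 8 members of high coverage, the 540 members within 5 Mb of an end were at 20.6%, 20.8% and 20.3% in lambs 1 to 3 and at 20.02%, 19.4% and 18.5% in fetuses 1 to 3. The difference of the means was 1.23 points (exact permutation p = 0.1, which 3 against 3 cannot go below). In the 186 members under 1 Mb from an end, those of high coverage included, the stages overlapped, at 20.7% ± 0.238 in lambs and 19.9% ± 1.34 in fetuses (SD, n = 3 each; exact permutation p = 0.5). The 1257 members farther away were at 15.7% ± 0.280 in lambs and 15.3% ± 0.638 in fetuses (SD, n = 3 each), a difference of 0.350 points (exact permutation p = 0.6). The step from far to near was 4.90 points in lambs and 4.01 points in fetuses, and its difference of 0.882 points was not resolved (exact permutation p = 0.2). Such a gap was not particular to these members. In the paired LMRs at all distances, each lamb was also above each fetus at usable CpGs (difference 1.37 points, exact permutation p = 0.1). They were at 28.9%, 29.5% and 28.4% in lambs 1 to 3 and at 27.5%, 28.3% and 26.9% in fetuses 1 to 3. In the 1 to 3 kb class the lamb minus fetal difference was 0.426 points near an end and 0.121 points farther away (exact permutation p = 0.2 and 0.4). This split was chosen after the data were seen, and over its 4 stage comparisons the smallest exact permutation p of 0.1 became 0.4 with Benjamini-Hochberg adjustment.

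Short UMRs had close neighbours more often than longer ones. The next UMR was a median of 10073 bases away, against 17262 bases in the 1 to 3 kb class, and within 2 kb in 14.5% of members against 9.19%. The next LMR was a median of 2907 bases away, against 4969 bases, and within 1 kb in 22.5% of members against 14.8%. By chromosome, the share of stable UMRs that were short ran from 7.14% on chromosome 25 (20 members) to 13.5% on chromosome 14 (158 members), with the largest number, 188, on chromosome 3. Chromosome 14 also had the most members per length, 2.52 per Mb, and chromosome 6 the fewest, 0.367 per Mb. The last 5 Mb of chromosome 20 held 26 members, of which 10 had a mean coverage over 8 reads, and their median level was 17.2%. The 6 members on chromosome 20 between 24 and 29 Mb had a median of 17.9% and the 115 on chromosome 11 a median of 13.1%.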

How the data were processed

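Per the file headers and the labels, the authors deposited counts of methylated and of covering reads per CpG position and animal, from 100-base paired reads of 1 lane per library. Builds Oar_v3.1 and hg19 and the tools BWA and Picard appear in the submitters' processing notes with no role. The sources used here do not say how methylation was called or how UMRs, LMRs, DMVs and DMRs were listed. Autosomes 1 to 26 were used.

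Members, tests and lists were chosen with earlier results of these data known. Members were matched by position. CpGs needed 5 reads in each of the 6 animals and tested regions 3 such CpGs. The region test was a quasi-binomial logistic model of stage, two-sided, whose dispersion was moderated over 78486 UMRs and LMRs as in limma's squeezeVar and not below 1 (prior 1.47 on 11.6 degrees of freedom), and Benjamini-Hochberg adjustment. It was tested on simulated reads. Class levels were compared by exact permutation over animals. Sign-flip tests, which compare kinds of region within animals, were added after the data were seen, and their p values are not adjusted. Alternatives tried were a minimum of 3 or of 10 reads, equal weight per CpG, leaving out each animal, a coverage ceiling, the shared span of a pair, a narrower length ratio, flanks of 500 bases, 5 usable CpGs, no minimum of difference, limma on log2 ratios with a pseudocount of 1, edgeR, and the replicate number as a block. Reads carry no molecular identifiers, so counting precision covers counting error alone.

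Regions were named by rule: per direction the 4 smallest unadjusted p without overlap of animals, the 3 each with most usable CpGs, largest SD, shortest length, and most usable CpGs at each DMR list, the one with most reads, and those next to 1000 bases. The nearest genes, gene lists and sequence motifs planned for this rule need a genome or annotation of Oar_v3.1, which was not used here, so no gene or sequence is given. Python 3.11.15, numpy 2.4.6, pandas 2.3.3, scipy 1.17.1, R 4.3.3, limma 3.58.1 and edgeR 4.0.16 were used.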

Additional observations from a re-analysis of the deposited data

How the results depend on the processing

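Differences are lamb minus fetal in percentage points. Exact permutation of 3 lambs against 3 fetuses cannot go below p = 0.1, and at 5 reads per CpG a single region resolves only large differences. With a coverage minimum of 10 reads, which favours members of high coverage and leaves 18 testable, values changed sign: -2.50 for the class level, -1.60 for its gap to UMRs of 1 to 3 kb, -1.03 for edge minus centre, and -0.232, -2.09 and -3.21 for the groups of fewest, middle and most CpGs. The flank difference kept its sign at 3.96. Over all covered CpGs, added after the data were seen, they were -0.219 for the class level, -0.347 for the gap, and -0.0689 and -0.493 for the groups of middle and most CpGs.

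Leaving out each animal, the differences ran from 0.0981 to 0.782 for the class level, 0.0436 to 0.577 for the gap, 0.144 to 0.973 for the flanks and 0.135 to 0.641 for edge minus centre. For the groups of fewest, middle and most CpGs they ran from -0.234 to 0.765, 0.359 to 0.847 and -0.477 to 0.830. Of the values recomputed for classes and for the number of calls, 94 kept their direction or their count of calls, 14 changed sign and 2 counts of calls moved. The exact permutation tests of classes cannot go below p = 0.1, so none of them could cross 0.05 and only their sign could change. Called members were 0 to 2, the 2 without lamb 1, and 1 with a minimum of 3 reads.

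With the replicate number as a block, 0 members and 0 of all tested regions were called, and an unadjusted p under 0.05 was found for 120 members (8.06%) and 10.6% of all tested regions. The class level difference of 0.352 had an exact permutation p of 0.5, where such a block cannot go below 0.25. Without the block, 7 of all 78486 tested regions and 0 members were called, so the block removed every call. Same-numbered animals did not deviate together: over 1488 members the correlations of their deviations from the stage means were -0.0401 to 0.0606.

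Of members named by position, the difference changed sign with a minimum of 10 reads at chromosome 12, 27077108 (-1.21) and chromosome 1, 98677502 (-0.745), and with a minimum of 3 reads at chromosome 17, 33929063 (-5.43) and chromosome 11, 34812059 (-3.11). With that minimum it kept its sign but moved at chromosome 22, 44651182 (-9.81) and 48354226 (6.98), chromosome 20, 17757676 (-7.21), 17687713 (0.459) and 7160380 (-4.89), and chromosome 24, 24774300 (-0.0406). Leaving out each animal, it ran from -3.36 to 5.72, -3.78 to 7.73, -19.4 to 16.5 and -5.01 to 7.81 in the 4 whose sign changed with a minimum, from -7.86 to 25.3 at chromosome 22, 48354226, from -3.35 to 1.49 at chromosome 20, 17757676, from -1.63 to 5.00 at chromosome 12, 3073072, from -1.50 to 0.353 at chromosome 24, 24774300, and from -2.07 to 0.0671 at chromosome 20, 49544917. Why they changed was not tested.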

Other observations

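Outside the autosomes, the same pairing rule found 48 short UMRs on chromosome X and 49 on unplaced contigs, which enter no comparison above. Over all covered CpGs the level on chromosome X was 26.9%, 27.8% and 27.2% in lambs 1 to 3 and 26.9%, 27.6% and 24.9% in fetuses 1 to 3, with a mean coverage of 4.84 to 7.85 reads. On unplaced contigs it was 15.8%, 17.7% and 16.7% in lambs and 18.4%, 14.4% and 15.8% in fetuses. The X level lay above the autosomal level over all covered CpGs, which ran from 14.7% to 15.9%, in each of the 6 animals, and the level on unplaced contigs around it.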
